A study of Mus musculus with 24 samples.

Results

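Splenic CD4+ T cells of Aim2-/- mice and of wild type (WT) mice were compared in how far their RNA levels had moved 24 h after their antigen receptor and CD28 had been engaged by antibodies (anti-CD3/CD28). The comparison used 12 of the 24 libraries of the series: unstimulated control cells (0 h) and cells stimulated for 24 h, from 3 WT mice (numbered 1, 3 and 4) and 3 Aim2-/- mice (numbered 1, 2 and 4). Each mouse gave 1 library at each time, so that a response, the 24 h level against the 0 h level on the log2 scale, could be formed within every mouse. The genotype difference is the Aim2-/- response minus the WT response, and a value below 0 means that the Aim2-/- response was the lower. All mice had the C57BL6 strain background, and all groups were CD4+ T cells from spleen kept in culture medium. The knockout is constitutive and not limited to T cells, so that a difference need not arise in the T cells themselves. The labels give no age and no sex. The other 12 libraries (3 h and 6 h of the same mice) carry no value of the contrast itself.

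CD4+ T cells leave quiescence when the T cell receptor and CD28 are engaged together. Genes of the resting state such as Il7r and S1pr1 are shut off within a day, while nutrient uptake, nucleotide and protein synthesis, glycolysis and finally DNA replication are turned on. A shortage of amino acids or a misfolding load is read by the integrated stress response, in which ATF4 raises genes for amino acid synthesis and transport. AIM2 is a cytosolic sensor of double-stranded DNA that assembles an inflammasome with ASC, and its gene lies in a cluster with the related Ifi200 genes.

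The targeted gene was examined first. Levels are counts per 1e6 counts of the library after scaling of the library size (CPM). At 0 h Aim2 stood at 21.5, 75.0 and 67.5 CPM in WT mice 1, 3 and 4 and at 15.7, 20.1 and 19.0 CPM in Aim2-/- mice 1, 2 and 4. At 24 h it stood at 5.57, 34.0 and 38.7 CPM in WT and at 6.55, 7.15 and 5.28 CPM in Aim2-/- cells. Both libraries labelled WT 1 were therefore close to the Aim2-/- level, against their label, and the neighbouring Ifi208 followed the same pattern, with 11 CPM in the library labelled WT 1 at 0 h, 53.3 and 56.0 CPM in WT 3 and WT 4, and 6.20 to 9.89 CPM in Aim2-/- mice. Groups below are those of the labels, and the number of genes that differed and the counts of the lists described at length are also given without the libraries labelled WT 1. The genotype difference of Aim2 itself was -0.33 ± 0.26 (SE; adjusted p = 0.532, edgeR quasi-likelihood test), and without the libraries labelled WT 1 it was -0.55 ± 0.20 (adjusted p = 0.219). It did not pass under any of the 16 alternatives to the fit of 12 libraries, with values from -0.55 to -0.03, the latter without WT 4.

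The 12 libraries held 19715161 to 21169479 counts each, and after scaling of the library size 3 counts correspond to 0.145 to 0.155 CPM. Summed CD4 T cell markers lay between 5297.7 and 5546.5 CPM in the 6 libraries at 0 h, with overlapping genotypes, and the 2 CD8 T cell markers summed to 8.12 to 11.4 CPM. Several other marker lists were higher in Aim2-/- libraries at both times. At 0 h the neutrophil list (10 of 12 markers with counts) summed to 32.9 to 34.6 CPM in WT and 130.4 to 361.6 CPM in Aim2-/-, the monocyte and macrophage list (13 of 14) to 65.4 to 86.7 and 151.0 to 432.9 CPM, and the basophil and mast cell list (9 of 9) to 38.7 to 43.4 and 100.9 to 212.9 CPM. At 24 h the same 3 lists summed to 4.06 to 5.34, 14.5 to 27.1 and 25.5 to 36.4 CPM in WT and to 15.0 to 121.3, 31.4 to 170.4 and 78.3 to 259.2 CPM in Aim2-/-. The highest sum of each was in Aim2-/- mouse 1. The part of these cells in the results below was not tested, and in bulk RNA fewer cells of a type and less RNA per cell cannot be told apart.

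**Figure D1:**
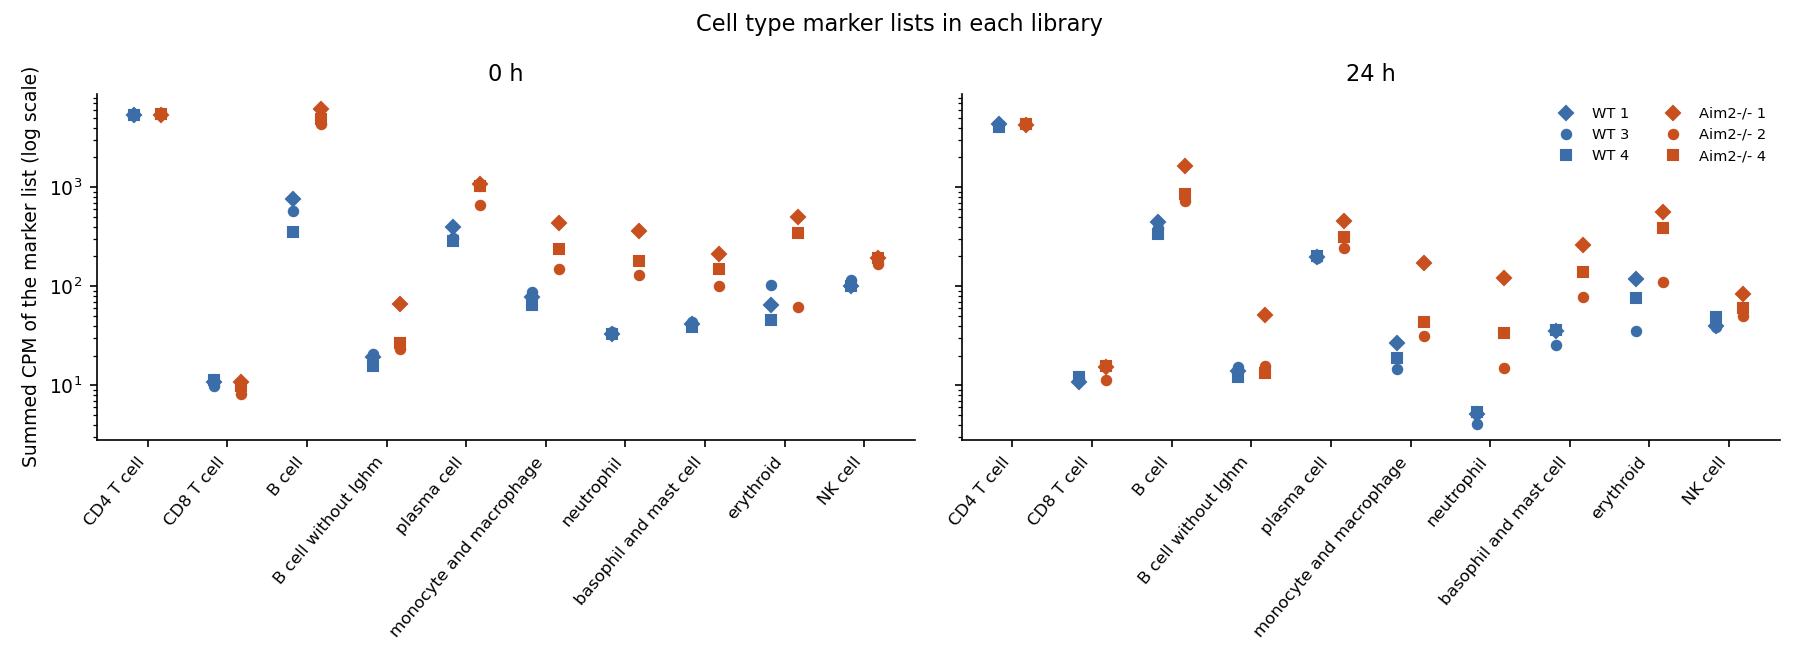
Summed CPM (log scale) of each cell type marker list in each library at 0 h (left) and 24 h (right), with 1 point per mouse, WT in blue and Aim2-/- in orange. The CD4 T cell sums of both genotypes coincide, whereas the B cell list (made up almost wholly of Ighm), the neutrophil list and the basophil and mast cell list are higher in all 3 Aim2-/- mice than in all 3 WT mice.

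Stimulation moved most of the transcriptome in both genotypes, and the number of genes in which the genotypes differed depended strongly on the fit. Of 14546 genes tested with the 12 libraries and the mouse as a block, 11158 (76.7%) changed in WT and 10977 (75.5%) in Aim2-/- cells at an adjusted p under 0.05. Genes that rose made up 38.8% in WT and 37.6% in Aim2-/- cells, and genes that fell 37.9% in each. The genotype difference passed that threshold for 1 gene (0.00687% of the genes tested), which was Ighm, the constant region of the immunoglobulin mu chain. At an unadjusted p under 0.05 there were 2535 genes (17.4%), 1000 with a higher response in Aim2-/- cells (6.87%) and 1535 with a lower one (10.6%). The responses of the 6 mice did not overlap between genotypes in 3108 genes (21.4%), with the Aim2-/- mice above in 1573 (10.8%) and below in 1535 (10.6%).

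This fit leaves 4 residual degrees of freedom per gene. With the 3 h and 6 h libraries of the same mice added there are 12, and the spread within a mouse is estimated from more libraries while the contrast stays the same. That fit takes the effect of a mouse and the spread to be the same at every time. This assumption was not tested, and the calls made with 24 libraries rest on it. In that fit 424 of 15325 genes passed (2.77%), 230 with a higher response in Aim2-/- cells (1.5%) and 194 with a lower one (1.27%). The 2 fits share their libraries and are not independent: of the 422 genes that were tested in both, all 422 had an unadjusted p under 0.05 and the same sign with 12 libraries, and the estimates of all genes tested in both differed by 0.0402 in the median. Below, a gene is said to differ, or its response to be higher or lower, where it passed with 24 libraries, and counts at an unadjusted p under 0.05 are those of the 12 libraries, as a description.

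The number of genes that differed rested on single mice. It was 660 without the libraries labelled WT 1, of which 337 were among the 424, 298 without WT 4, 72 without Aim2-/- 4, 21 without Aim2-/- 1 and 6 without WT 3, and it reached 1186 without Aim2-/- 2, of which 408 were among the 424. Without the mouse as a block none passed in 24 libraries and 1 passed in 12, and that gene was Pycr1 and not Ighm. DESeq2 passed 403 genes with 12 libraries and 905 with 24. All 424 kept their sign in each of the other fits of 24 libraries. This is a description, since those fits share most of their values with the fit that chose the 424 genes. Scaling by library totals in place of TMM factors gave 482 genes, 64.5% of them higher against 54.2% with TMM factors.

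**Figure D2:**
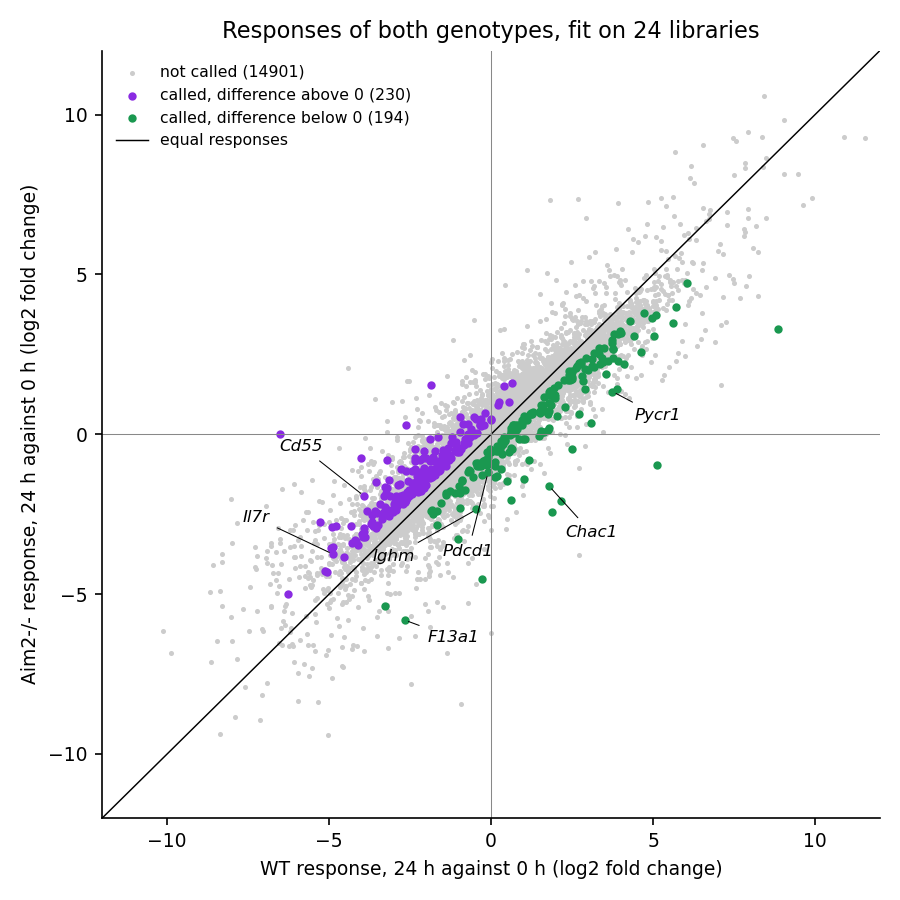
Fitted log2 fold change from 0 h to 24 h in WT (horizontal axis) and Aim2-/- cells (vertical axis) for the 15325 genes tested with 24 libraries, with 1 point per gene. The 230 genes with a higher Aim2-/- response (purple) lie above the diagonal of equal responses and mostly in the lower left quadrant, and the 194 with a lower one (green) lie below it.

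In the fit of 24 libraries 38.6% of all genes rose and 37.7% fell in WT, and 39% rose and 36.8% fell in Aim2-/- cells (76.3% and 75.8% changed). The genes that differed responded in Aim2-/- cells mainly in the WT direction, but less far. Of the 230 higher genes, 192 fell in both genotypes, 21 fell in WT and did not pass in Aim2-/-, 8 fell in WT and rose in Aim2-/-, 6 rose in Aim2-/- only by this test and 3 rose in both. Of the 194 lower genes, 100 rose in both, 26 rose in WT and did not pass in Aim2-/-, 13 rose in WT and fell in Aim2-/-, 31 fell in both and 24 fell in Aim2-/- and did not pass in WT. The WT response was the larger in 355 of the 424 genes (83.7%), against 61.6% of all genes tested. Among the lower genes the genotypes were further apart at 0 h than at 24 h in 157 of 194, among the higher genes in 112 of 230, and among all genes tested in 8090 of 15325. The genotype difference in level had opposite signs at 0 h and at 24 h in 343 of the 424 genes and in 5885 of all 15325. These 3 shares are a description, since the contrast itself chose the 424 genes.

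Genes of amino acid supply and of the integrated stress response were prominent among those with a lower response. Chac1, a glutathione-degrading enzyme and ATF4 target, stood at 1.45, 0.258 and 0.456 CPM in WT mice 1, 3 and 4 at 0 h and at 7.75, 5.32 and 5.46 CPM in Aim2-/- mice 1, 2 and 4. At 24 h it stood at 2.03, 2.00 and 2.36 CPM in WT and at 2.49, 1.96 and 1.59 CPM in Aim2-/- cells. The genotypes did not overlap at 0 h and did at 24 h, and Chac1 rose in WT while it fell in Aim2-/- cells, with a difference of -3.40 ± 0.52 on the log2 scale (adjusted p = 0.00383, edgeR, 24 libraries). With 12 libraries it was -3.32 ± 0.53 (adjusted p = 0.104).

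Pycr1, which makes proline, stood at 0.8, 0.569 and 0.761 CPM in WT and 3.05, 2.17 and 3.05 CPM in Aim2-/- cells at 0 h. At 24 h the order was turned round, with 9.32, 8.84 and 10.5 CPM in WT and 6.16, 7.66 and 7.03 CPM in Aim2-/- cells. Its response was lower by a log2 difference of -2.41 ± 0.38 (adjusted p = 0.00446, edgeR, 24 libraries). Asns, the asparagine synthetase, went from 5.0, 2.48 and 2.94 CPM (0 h) to 36.6, 37.3 and 42.6 CPM (24 h) in the WT mice and from 13.7, 6.11 and 14.2 to 40.6, 41.2 and 36.4 CPM in the Aim2-/- mice. Its 24 h levels overlapped, and the lower response (-1.64 ± 0.34, adjusted p = 0.0151, edgeR, 24 libraries) stood beside higher 0 h levels in Aim2-/- mice than in WT mice, which did not overlap. Got1, the cytosolic aspartate aminotransferase, fell in Aim2-/- cells (-0.93 ± 0.10) and moved by -0.09 ± 0.10 in WT, a difference of -0.84 ± 0.15 (adjusted p = 0.00772, edgeR, 24 libraries).

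Of the 22 integrated stress response genes, all tested, 14 were lower and 0 higher at an unadjusted p under 0.05, beside 10.6% and 6.87% of all genes, and their median difference was -0.523 against -0.0349 over all genes. The 4 that passed with 24 libraries were Chac1, Asns, Phgdh and Mthfd2, of which the last pair makes serine and passes its carbon on to folate. The list's median genotype difference in level was 0.487 at 0 h and 0.0147 at 24 h. The count of 14 was 9 without the libraries labelled WT 1, without WT 4 or without Aim2-/- 1, and the median stayed below 0 in each case, between -0.56 and -0.413 over the 6 mice left out in turn.

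The promoters of these genes are shown because Chac1, Asns and Pycr1 are known ATF4 targets. The core of the element that ATF4 and C/EBP proteins bind together, TGATGNAA, was looked for on both strands in windows of 300 bases (250 before and 50 after the annotated start; RefSeq, GRCm38.p6). It was held by 1219 of 27025 genes with a window (4.51%), by 8 of 20 genes of the integrated stress response list (40%), by 5 of 12 aminoacyl-tRNA synthetase genes (41.7%), by 11 of 147 genes with a lower response (7.48%) and by 3 of 175 with a higher one (1.71%). The windows of Got1 and Aars held a match, and those of Phgdh and Mthfd2 held none. The motif was chosen after the results were seen, and a match is a description and not a bound site. The 250 bases before the start are printed on the gene's strand, 5′ to 3′, with the match on either strand in capitals. They are chr2:119350992-119351241 (plus strand) for Chac1, with the match beginning at -193 from the start, chr6:7693210-7693459 (minus strand) for Asns, at -23, and chr11:120643749-120643998 (minus strand) for Pycr1, at -103.
Chac1: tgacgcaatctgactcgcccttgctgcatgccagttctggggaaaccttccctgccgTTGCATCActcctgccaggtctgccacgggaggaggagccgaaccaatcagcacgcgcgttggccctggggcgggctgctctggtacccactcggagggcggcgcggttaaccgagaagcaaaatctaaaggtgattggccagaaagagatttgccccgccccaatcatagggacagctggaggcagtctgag
Asns: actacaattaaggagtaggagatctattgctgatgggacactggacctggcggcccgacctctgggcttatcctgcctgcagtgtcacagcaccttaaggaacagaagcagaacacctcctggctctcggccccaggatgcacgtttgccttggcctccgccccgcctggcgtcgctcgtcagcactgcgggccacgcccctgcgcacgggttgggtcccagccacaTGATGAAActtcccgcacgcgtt
Pycr1: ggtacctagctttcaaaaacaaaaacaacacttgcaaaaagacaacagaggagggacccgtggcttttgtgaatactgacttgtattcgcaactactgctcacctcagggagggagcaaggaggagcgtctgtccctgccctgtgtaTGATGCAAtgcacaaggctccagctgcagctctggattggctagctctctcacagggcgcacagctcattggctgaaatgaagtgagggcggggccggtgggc

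Neighbouring anabolic classes leaned the same way, but the lists share members. Phgdh and Mthfd2, among others, are in both the stress response list and the serine and nucleotide list, so those counts are not separate. Of 32 genes of serine, one-carbon and nucleotide synthesis, 31 rose in each genotype, and 24 had a lower response at an unadjusted p under 0.05 (0 higher; median difference -0.405). Phgdh stood at 10.4, 12.5 and 10.4 CPM in WT and 14.6, 15.8 and 18.0 CPM in Aim2-/- cells at 0 h, and at 143, 146 and 148 CPM against 103, 140 and 135 CPM at 24 h. The genotypes did not overlap at either time and their order was turned round (-0.76 ± 0.13, adjusted p = 0.00833, edgeR, 24 libraries). Mthfd2, Cad and Rrm1, which serve folate, pyrimidine and deoxynucleotide synthesis, passed as well, with differences of -0.64, -0.76 and -0.83. The count of 24 was 16 without the libraries labelled WT 1, 14 without Aim2-/- 1, 12 without Aim2-/- 4 and 11 without WT 3, where the median was -0.254.

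Of 20 cytosolic aminoacyl-tRNA synthetase genes, which load amino acids onto tRNA, 11 were lower and 0 higher (median -0.325), and Aars and Kars passed with 24 libraries. Aars stood at 98.5, 87.7 and 95.3 CPM in WT and 134, 120 and 122 CPM in Aim2-/- cells at 0 h, and at 344, 391 and 373 CPM against 251, 337 and 296 CPM at 24 h (-0.75 ± 0.12, adjusted p = 0.00556, edgeR, 24 libraries). The count of 11 was 9 without the libraries labelled WT 1, 6 without WT 4, 5 without either Aim2-/- 1 or Aim2-/- 4, and 4 without WT 3, where the median was -0.159. Of 25 glycolysis genes, 12 were lower and 1 higher (median -0.303), with Tpi1, Aldoa and the lactate transporter Slc16a1 passing with 24 libraries. That count was 8 without the libraries labelled WT 1, 6 without Aim2-/- 1 and 4 without WT 3, where the median was -0.197.

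Of 76 ribosome biogenesis genes, 32 were lower and 0 higher (median -0.253), and Ubtf, a factor of RNA polymerase I, passed with 24 libraries (-0.66 ± 0.16, adjusted p = 0.0259, edgeR). The count of 32 was 16 without the libraries labelled WT 1, 18 without WT 4, 11 without Aim2-/- 1, 10 without Aim2-/- 4 and 5 without WT 3, and the median was -0.168 without Aim2-/- 1 and -0.144 without WT 3. Of 42 chaperone and ER folding genes 18 were lower and 0 higher, and Creld2 and Hsp90aa1 passed. Enzymes of the TCA cycle (10 of 25 lower, 1 higher) and proteasome subunits (11 of 48 lower, 0 higher) held no gene that passed with 24 libraries.

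**Figure D3:**
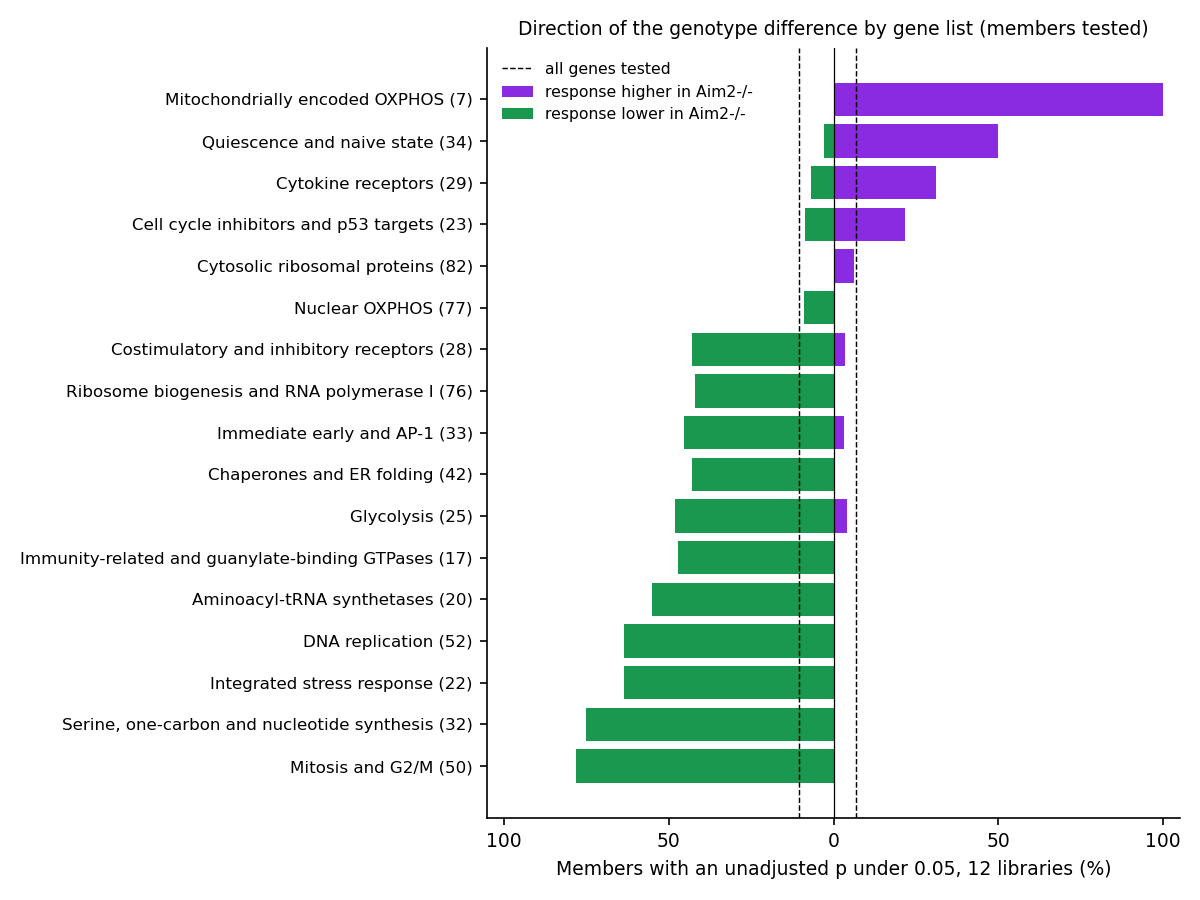
Share of the tested members of each gene list with an unadjusted p under 0.05 for the genotype difference in 12 libraries (bars; right, higher response in Aim2-/-; left, lower), with the number of members tested in brackets and the shares over all genes as dashed lines (6.87% higher, 10.6% lower). Mitosis, serine and nucleotide synthesis, stress response and replication lists extend to the left, and the quiescence list and the 7 mitochondrially encoded genes to the right.

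Nearly all DNA replication genes rose in both genotypes, and 7 of them rose less far in Aim2-/- cells. Of 52 DNA replication genes 50 rose in WT and 51 in Aim2-/- cells, 33 had a lower response at an unadjusted p under 0.05 (0 higher; median -0.499), and 7 passed with 24 libraries (Mcm2, Mcm5, Mcm6, Fen1, Dna2, Rfc3 and Uhrf1). Uhrf1, which guides maintenance DNA methylation to new strands, stood at 20.5, 10.5 and 15.3 CPM in WT and 41.1, 20.2 and 27.2 CPM in Aim2-/- cells at 0 h. At 24 h it stood at 481, 548 and 482 CPM in WT and at 277, 468 and 367 CPM in Aim2-/- cells (-1.36 ± 0.35, adjusted p = 0.0401, edgeR, 24 libraries). Its genotypes overlapped at 0 h and did not at 24 h, with Aim2-/- mouse 1 lowest.

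Dtl, a substrate adaptor that clears replication licensing factors, moved in a similar way, from 16.6, 8.99 and 9.69 CPM (0 h) to 146, 163 and 145 CPM (24 h) in the WT mice and from 27.5, 19.0 and 24.5 to 103, 137 and 116 CPM in the Aim2-/- mice (-1.37 ± 0.30, adjusted p = 0.0206, edgeR, 24 libraries). The median difference in level of the list, Aim2-/- minus WT on the log2 scale, was 0.164 at 0 h and -0.27 at 24 h. The count of 33 was 33 without the libraries labelled WT 1, 21 without Aim2-/- 1 and 16 without WT 3, where the median was -0.315. The letters TTTNGCGC, a core of E2F sites, were in the promoter window of 14 of 43 replication genes (32.6%), beside 1.57% of all genes with a window and 5.44% of the genes with a lower response. This motif too was chosen after the results were seen.

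The mitosis and G2/M list had the largest median difference of all lists with a lower response (-0.898; 39 of 50 genes lower and 0 higher at an unadjusted p under 0.05), yet none of its genes passed with 12 or with 24 libraries in edgeR. Its 3 genes with the lowest p, named after their values were seen, were Aurkb, Bub1b and Cenpe. Aurkb, the kinase of the chromosomal passenger complex, went from 8.30, 3.98 and 5.32 CPM (0 h) to 198, 208 and 185 CPM (24 h) in the WT mice and from 12.9, 9.50 and 14.4 to 154, 194 and 190 CPM in the Aim2-/- mice, a difference of -1.26 ± 0.27 (adjusted p = 0.111, edgeR, 12 libraries). The 0 h levels did not overlap and the 24 h levels did. Without the libraries labelled WT 1, whose 0 h levels of these 3 genes were the highest among WT mice, 17 of the list passed with 24 libraries and 2 with 12, and without Aim2-/- 2 the numbers were 34 and 28. DESeq2 passed 6 with 24 libraries and 11 with 12, the GC and length offset passed 5 with 24, and 39 passed with 12 and no filter on low counts. The count of 39 at an unadjusted p under 0.05 was 41 without the libraries labelled WT 1, 25 without WT 4, 23 without Aim2-/- 1, 22 without Aim2-/- 4 and 17 without WT 3, where the median was -0.598. Of 67 replication-dependent histone genes 36 were tested, and 0 of these had an unadjusted p under 0.05 in either direction. How fully the mRNA libraries captured these transcripts was not tested, so this 0 is not read as a result about histone genes.

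Several surface receptors of antigen-experienced T cells had a lower response, and the median difference in level of the receptor list was 0.385 at 0 h and 0.016 at 24 h on the log2 scale. Pdcd1 (PD-1) stood at 268, 141 and 180 CPM in WT and 490, 382 and 339 CPM in Aim2-/- cells at 0 h, and at 215, 173 and 150 CPM and 197, 177 and 152 CPM at 24 h. The 24 h levels overlapped, and the fall passed the test in Aim2-/- cells and not in WT (-1.10 ± 0.14 for the difference, adjusted p = 0.000879, edgeR, 24 libraries). Of 28 costimulatory and inhibitory receptors tested, 12 were lower and 1 higher (median -0.353), and 6 lower and 1 higher passed with 24 libraries. The lower ones were Pdcd1, Lag3, Cd200, Cd5, Cd6 and the PD-1 ligand Pdcd1lg2, and the higher one was Tnfrsf25. Without the libraries labelled WT 1 the count at an unadjusted p under 0.05 was 13, and without WT 3 it was 8 and the median -0.0914.

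Cd200 rose from 39.0, 22.2 and 24.2 CPM (0 h) to 460, 488 and 406 CPM (24 h) in the WT mice and from 48.7, 33.6 and 39.8 to 363, 356 and 371 CPM in the Aim2-/- mice (-0.85 ± 0.18, adjusted p = 0.0159, edgeR, 24 libraries). The 24 h levels of all 3 Aim2-/- mice lay below those of all 3 WT mice. Slamf7, a receptor of the SLAM family that lies in the chromosome 1 region of Aim2, stood at 22.6, 8.99 and 13 CPM against 26.6, 20.4 and 23.4 CPM at 0 h and at 34.0, 66.4 and 57.5 CPM against 25.2, 28.7 and 27.3 CPM at 24 h. It rose in WT and its response was lower in Aim2-/- cells (-1.58 ± 0.35, adjusted p = 0.0216, edgeR, 24 libraries), with the library labelled WT 1 within the Aim2-/- range at 0 h and between the other WT mice and the Aim2-/- mice at 24 h.

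Some transcription factors and signalling genes differed as well. Tbx21, which encodes T-bet of Th1 cells, stood at 26.2, 17.4 and 20.6 CPM in WT and 55.4, 32.0 and 38.0 CPM in Aim2-/- cells at 0 h, and at 221, 247 and 244 CPM and 180, 221 and 208 CPM at 24 h. It rose in both and by less in Aim2-/- cells (-1.20 ± 0.29, adjusted p = 0.0273, edgeR, 24 libraries). The related Eomes fell in both genotypes, with log2 changes of -0.96 ± 0.21 in WT and -2.31 ± 0.20 in Aim2-/- cells, from 19.2 to 45.4 CPM in WT and 72.8 to 99.4 CPM in Aim2-/- cells at 0 h. Eomes is also a marker of NK cells, whose list of 9 markers, Eomes among them, summed to 99.97 to 115.6 CPM in WT and 166.1 to 191.7 CPM in Aim2-/- cells at 0 h and to 38.4 to 49.4 and 49.97 to 82.8 CPM at 24 h, and the part of NK cells was not tested. Irf8 rose from 16.7, 29.5 and 23.6 CPM (0 h) to 724, 726 and 712 CPM (24 h) in the WT mice and from 64.0, 31.5 and 39.2 to 500, 612 and 587 CPM in the Aim2-/- mice (-1.34 ± 0.32, adjusted p = 0.0262, edgeR, 24 libraries). Irf8 did not overlap at either time, higher in Aim2-/- cells at 0 h and lower at 24 h. Its 0 h level was highest in Aim2-/- mouse 1, which also had the highest neutrophil and monocyte and macrophage sums. The part of cells other than T cells was not tested for Irf8 or Tbx21 either. Stat3 and Jak2 fell further in Aim2-/- cells (-0.52 and -0.62), and the survival gene Bcl2l1 rose less far (-0.75).

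Of 28 T helper cytokine genes tested, 4 were higher and 6 lower at an unadjusted p under 0.05, beside 6.87% and 10.6% of all genes. None passed in either fit. Ifng, the signature cytokine of Th1 cells, stood at 16.1, 9.82 and 15.9 CPM in WT and 31.9, 16.5 and 32.0 CPM in Aim2-/- cells at 0 h and 103, 63.3 and 121 CPM against 435, 170 and 346 CPM at 24 h (0.72 ± 0.13, adjusted p = 0.104, edgeR, 12 libraries). Il2, the growth factor of activated T cells, went from 1.85, 1.34 and 1.57 CPM (0 h) to 139, 149 and 148 CPM (24 h) in the WT mice and from 3.10, 1.82 and 2.71 to 118, 86.4 and 109 CPM in the Aim2-/- mice (-1.18 ± 0.19, adjusted p = 0.104, edgeR, 12 libraries). For both genes the 24 h levels of the genotypes did not overlap, Ifng above and Il2 below in Aim2-/- cells. Il10 was higher in each Aim2-/- mouse than in each WT mouse at 0 h (48.4 to 70.8 against 18.8 to 46.4 CPM), its 24 h levels overlapped, and its difference was -0.07 (adjusted p = 0.933, edgeR, 12 libraries). The values of Il4 (-0.27), Il17a (0.51), Gata3 (-0.25) and Foxp3 (0.33) did not pass either. The level of Foxp3 was higher in each Aim2-/- mouse than in each WT mouse at both times. It was 135 to 171 against 85.0 to 117 CPM at 0 h and 66.3 to 146 against 34.5 to 62.9 CPM at 24 h. The direction of Il10, Il4 and Il17a turned when single mice were left out.

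**Figure D4:**
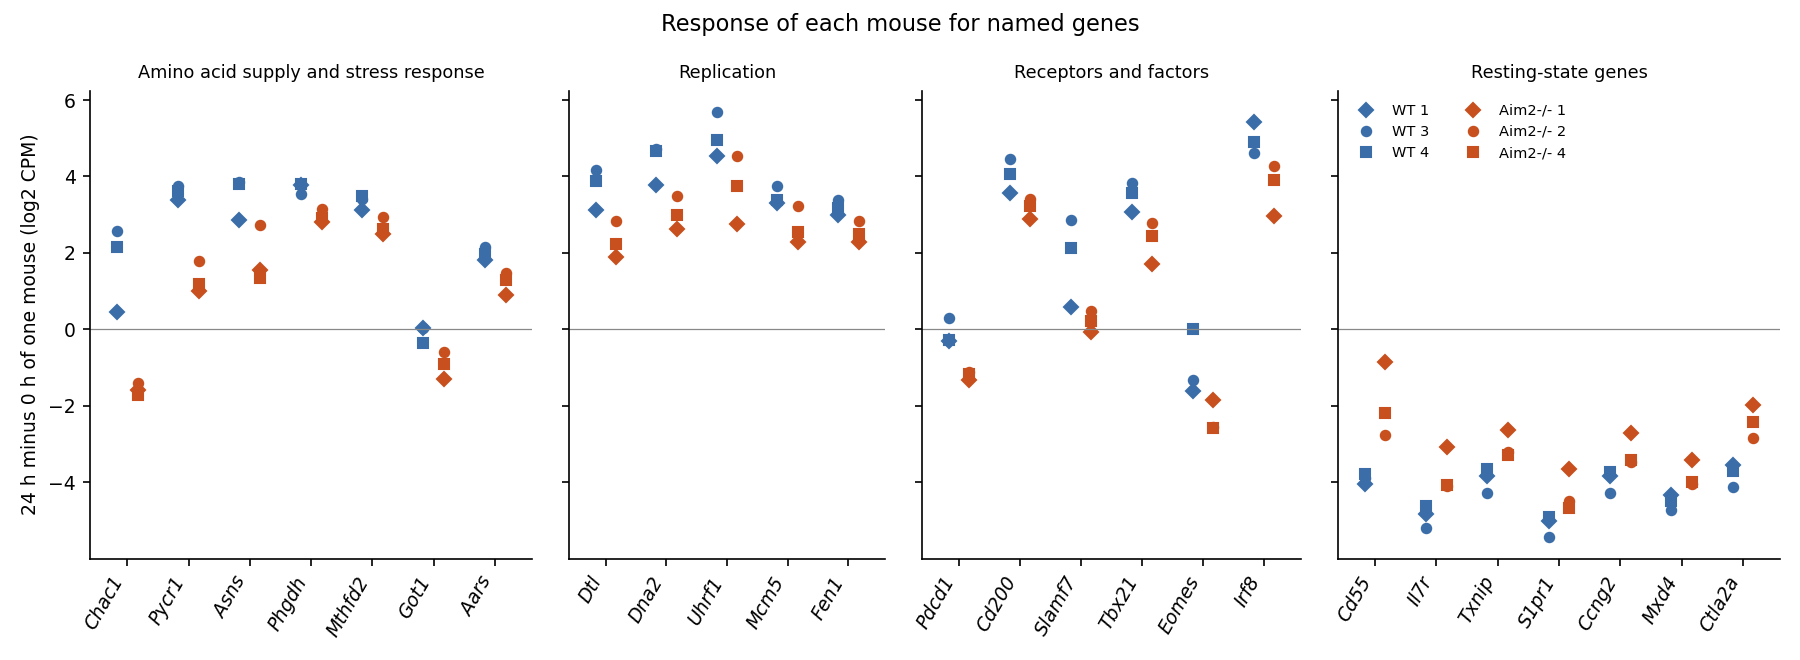
Response of each mouse (log2 CPM at 24 h minus 0 h, vertical axis) for genes of amino acid supply and stress, replication, receptors and transcription factors, and the resting state, with 1 point per mouse, WT in blue and Aim2-/- in orange. For each gene drawn the Aim2-/- points lie on one side of the WT points, below in the first 3 panels and above in the last. This separation is a description, since genes were named largely because they differed. For the largest differences, no overlap of the 6 responses was itself part of the naming rule. The responses did not overlap in 407 of the 424 genes that differed. They did not overlap in 3108 of the 14546 genes tested with 12 libraries (21.4%).

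Genes of the quiescent and naive state were the list with the most genes that passed with a higher response, 7, each of which fell in both genotypes and by less in Aim2-/- cells. Of 34 genes, 30 fell in each genotype, 17 had a higher and 1 a lower response at an unadjusted p under 0.05, and the median difference was 0.373. With 24 libraries the higher ones included Cd55, Il7r, Txnip, S1pr1, Pik3ip1 and Klf2, and Tob2 was lower. The median difference in level, Aim2-/- minus WT on the log2 scale, was -0.398 at 0 h and -0.0179 at 24 h. The count of 17 was 18 without the libraries labelled WT 1 and 11 without Aim2-/- 1.

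Cd55, the decay-accelerating factor of complement, stood at 92.8, 71.8 and 99.4 CPM in WT and 26.0, 57.9 and 55.9 CPM in Aim2-/- cells at 0 h. At 24 h it stood at 5.57, 4.73 and 7.08 CPM in WT and at 14.3, 8.36 and 12.2 CPM in Aim2-/- cells. The genotypes did not overlap at either time and changed order, a difference of 2.00 ± 0.33 (adjusted p = 0.00608, edgeR, 24 libraries). Il7r, the receptor chain for the survival cytokine IL-7, fell from 969, 895 and 973 CPM (0 h) to 34.1, 24.4 and 39.5 CPM (24 h) in the WT mice and from 477, 733 and 641 to 55.9, 42.5 and 38.2 CPM in the Aim2-/- mice (1.13 ± 0.21, adjusted p = 0.00833, edgeR, 24 libraries). Its 0 h levels did not overlap, and Aim2-/- mouse 1 was lowest at 0 h and highest at 24 h.

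Txnip, a brake on glucose uptake, fell from 982, 1152 and 1156 CPM (0 h) to 69.2, 59.2 and 91.0 CPM (24 h) in the WT mice and from 735, 923 and 943 to 119, 98.9 and 96.4 CPM in the Aim2-/- mice (0.87 ± 0.16, adjusted p = 0.00924, edgeR, 24 libraries). S1pr1, which serves exit from lymph nodes, was higher by 0.84 ± 0.20. Klf2, a transcription factor that drives S1pr1, was higher by 0.83 ± 0.22. The letters TGTTTAC, a core of FOXO sites, were in the window of 4 of 28 genes of this list (14.3%), of 13 of 175 genes with a higher response (7.43%), of 1 of 147 with a lower one (0.68%) and of 4.05% of all genes. The windows of Cd55, Il7r, Klf2, Pik3ip1, Ccng2 and Cdkn1b held no match. The promoter of Txnip is printed as the example with a match, chr3:96557707-96557956 (plus strand, GRCm38.p6, RefSeq), with the match on the opposite strand in capitals from -121.
Txnip: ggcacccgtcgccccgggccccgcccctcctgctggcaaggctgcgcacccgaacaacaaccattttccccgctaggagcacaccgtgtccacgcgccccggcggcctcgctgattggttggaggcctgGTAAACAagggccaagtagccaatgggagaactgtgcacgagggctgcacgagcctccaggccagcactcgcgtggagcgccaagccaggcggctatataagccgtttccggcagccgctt

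Some brakes on the cell cycle and on growth also had a higher response. Of 23 cell cycle inhibitors and p53 targets tested, 5 were higher and 2 lower, beside 6.87% and 10.6% of all genes. With 24 libraries 4 passed, all higher, beside 1.5% of all genes: Ccng2, Sesn1, Gadd45a and the CDK inhibitor Cdkn1b (0.75, 0.61, 0.83 and 0.65). The count of 4 was 0 without WT 3, without Aim2-/- 1 or without Aim2-/- 4. It was 3 without the libraries labelled WT 1 or without WT 4, and 4 without Aim2-/- 2. The median of that list was -0.0262 with TMM factors and 0.0508 with library totals, so the list as a whole has no firm direction. Ccng2, an atypical cyclin of resting cells, fell from 217, 231 and 203 CPM (0 h) to 15.0, 11.9 and 15.2 CPM (24 h) in the WT mice and from 150, 174 and 179 to 22.7, 15.6 and 16.8 CPM in the Aim2-/- mice. Its genotypes did not overlap at 0 h or at 24 h. Mxd4, a MYC antagonist, was higher by 0.70 ± 0.17 (adjusted p = 0.0328, edgeR, 24 libraries). Of 29 cytokine receptors 9 were higher and 2 lower, beside 6.87% and 10.6% of all genes. With 24 libraries Il7r, Il18r1 and Il17ra were higher and Il2rb was lower.

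Among single genes the largest higher responses of those with at least 50 CPM were those of Cd55, Ctla2a, Neurl3, Il7r and Gabbr1. Ctla2a, a cathepsin inhibitor, overlapped between genotypes at 0 h (52.5, 68.4 and 75.4 CPM in WT and 77.9, 59.4 and 81.0 CPM in Aim2-/- cells) and was lost less fully, with 4.36, 3.85 and 5.70 CPM in WT and 19.8, 8.26 and 14.9 CPM in Aim2-/- cells at 24 h (1.42 ± 0.19, adjusted p = 0.000879, edgeR, 24 libraries). Neurl3, a ubiquitin ligase, stood at 925 to 1510 CPM in WT and 1248 to 1420 CPM in Aim2-/- cells at 0 h and at 12.4 to 19.7 CPM against 32.5 to 59.0 CPM at 24 h (1.29 ± 0.24, adjusted p = 0.00924, edgeR, 24 libraries). For both genes the genotypes overlapped at 0 h and did not overlap at 24 h. Below 50 CPM, Adh1, an alcohol and retinol dehydrogenase, fell to 0.253 to 0.617 CPM in WT and 0.636 to 1.08 CPM in Aim2-/- cells (1.91 ± 0.38, adjusted p = 0.0137, edgeR, 24 libraries), close to the level of 3 counts.

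The 7 mitochondrially encoded subunits of the respiratory chain that were tested, of 13 listed, had a higher response at an unadjusted p under 0.05 (median 0.621), and none passed in either fit. mt-Co1, a subunit of cytochrome c oxidase, stood at 4757, 5420 and 4070 CPM in WT and 4217, 3711 and 5120 CPM in Aim2-/- cells at 0 h, and at 3249, 3007 and 2990 CPM against 6065, 3020 and 4808 CPM at 24 h. The genotypes overlapped at both times, with Aim2-/- mice 1 and 4 above and Aim2-/- mouse 2 among the WT mice at 24 h (0.62 ± 0.19, adjusted p = 0.173, edgeR, 12 libraries). The count was 7 without the libraries labelled WT 1, and without Aim2-/- 1 it was 4 and the median 0.359. Of 77 nuclear subunits 7 were lower and 0 higher (median -0.061), near the share over all genes in the lower direction. Of 82 cytosolic ribosomal protein genes, 5 were higher and 0 lower (median 0.179), near the share over all genes in the higher direction, and the count of 5 was 2 without Aim2-/- 1, 8 without WT 4, 10 without the libraries labelled WT 1 and 22 without Aim2-/- 2. The median was 0.0586, 0.22, 0.285 and 0.292 in the same order.

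Other lists gave few calls. The 14 Treg signature genes held 4 lower and 0 higher at an unadjusted p under 0.05, and Pdcd1 and Il2rb passed with 24 libraries. Of 33 immediate early and AP-1 genes 15 were lower and 1 higher (median -0.288), none passed with 24 libraries, and the count was 11 without the libraries labelled WT 1, 8 without WT 4 or without Aim2-/- 4 and 5 without WT 3. Of 17 immunity-related and guanylate-binding GTPase genes, which respond to interferons, 8 were lower, and Igtp passed (-0.47 ± 0.12, adjusted p = 0.0378, edgeR, 24 libraries). Of 46 interferon-stimulated genes 4 were higher, and Ifi27 passed. Of 317 zinc finger Zfp genes 24 were higher and 11 lower, and of 44 T cell receptor signalling genes 5 were higher and 4 lower. Over all genes 6.87% were higher and 10.6% lower. The counts of higher interferon-stimulated and Zfp genes were near that share. Neither these lists nor the T cell receptor signalling list are read as a result about their members.

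Some genes that differed are known for expression in cells other than T cells. Ighm stood at 738, 556 and 341 CPM in WT and 6050, 4332 and 4895 CPM in Aim2-/- cells at 0 h, and at 431, 371 and 325 CPM against 1578, 707 and 845 CPM at 24 h. It was higher in all Aim2-/- libraries at both times and fell further there, a difference of -1.92 ± 0.21 (adjusted p = 0.0215, edgeR, 12 libraries) that missed the threshold without WT 3, without WT 4, without Aim2-/- 4, without the block, with library totals and with a filter on a mean of at least 1 CPM, and that passed with 24 libraries whichever mouse was left out. The other 14 B cell markers summed to 15.7 to 20.9 CPM in WT and 23.2 to 66.7 CPM in Aim2-/- cells at 0 h, Cd79a stood at 0.913 to 1.75 and 3.25 to 10.3 CPM and Ms4a1 at 0.05 to 0.101 and 0.345 to 0.872 CPM. At 24 h the same 14 summed to 12.2 to 15.4 CPM in WT and 13.3 to 50.8 CPM in Aim2-/- cells, which overlapped. F13a1, a monocyte gene, stood at 3.09 to 5.4 CPM in WT and 18.5 to 39.4 CPM in Aim2-/- cells at 0 h and fell to 0.616 to 0.760 and 0.205 to 0.806 CPM (-3.14 ± 0.52, adjusted p = 0.00608, edgeR, 24 libraries). Hdc, the histidine decarboxylase of basophils and mast cells, and Sdc1, of plasma cells, were also lower (-1.04 and -1.39), whereas the Fc receptor gene Fcgr2b was higher (1.51 ± 0.36). These single genes do not stand for the marker lists of such cells. With 12 libraries the difference was above 0 in 9 and below 0 in 2 monocyte and macrophage markers (median 0.636). The basophil and mast cell list held 5 above and 4 below (0.111). The plasma cell list held 3 and 4 (-0.101), and the B cell list, with Ighm, 6 and 6 (-0.0712).

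The 424 genes were mostly protein coding (214 higher and 184 lower). Within 10 Mb of Aim2 6 of 181 genes tested differed (3.31%), and elsewhere 418 of 15144 (2.76%). Narrower windows were not counted, so these shares do not tell whether genes that differed were gathered closer to Aim2. The 424 genes included Ifi208, Slamf7, Slamf9, Fcgr2b and Fcgr3, on chromosome 1. Ifi208 fell in WT from the levels given above to 2.69, 10.4 and 17.8 CPM and in Aim2-/- cells to 5.04, 4.43 and 4.77 CPM, a difference of 1.26 ± 0.28 (adjusted p = 0.021, edgeR, 24 libraries). The counting of Ifi200 genes is uncertain, since members of this family share sequence.

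The libraries of 3 h and 6 h gave levels between the 2 times compared. Chac1 lay below every Aim2-/- mouse in each WT mouse at 0 h, 3 h and 6 h and overlapped at 24 h. Cd55 was highest in the 3 WT mice at 0 h and at 3 h and lowest in them at 24 h. Ighm stayed higher in every Aim2-/- library than in every WT library at each of the 4 times.

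**Figure D5:**
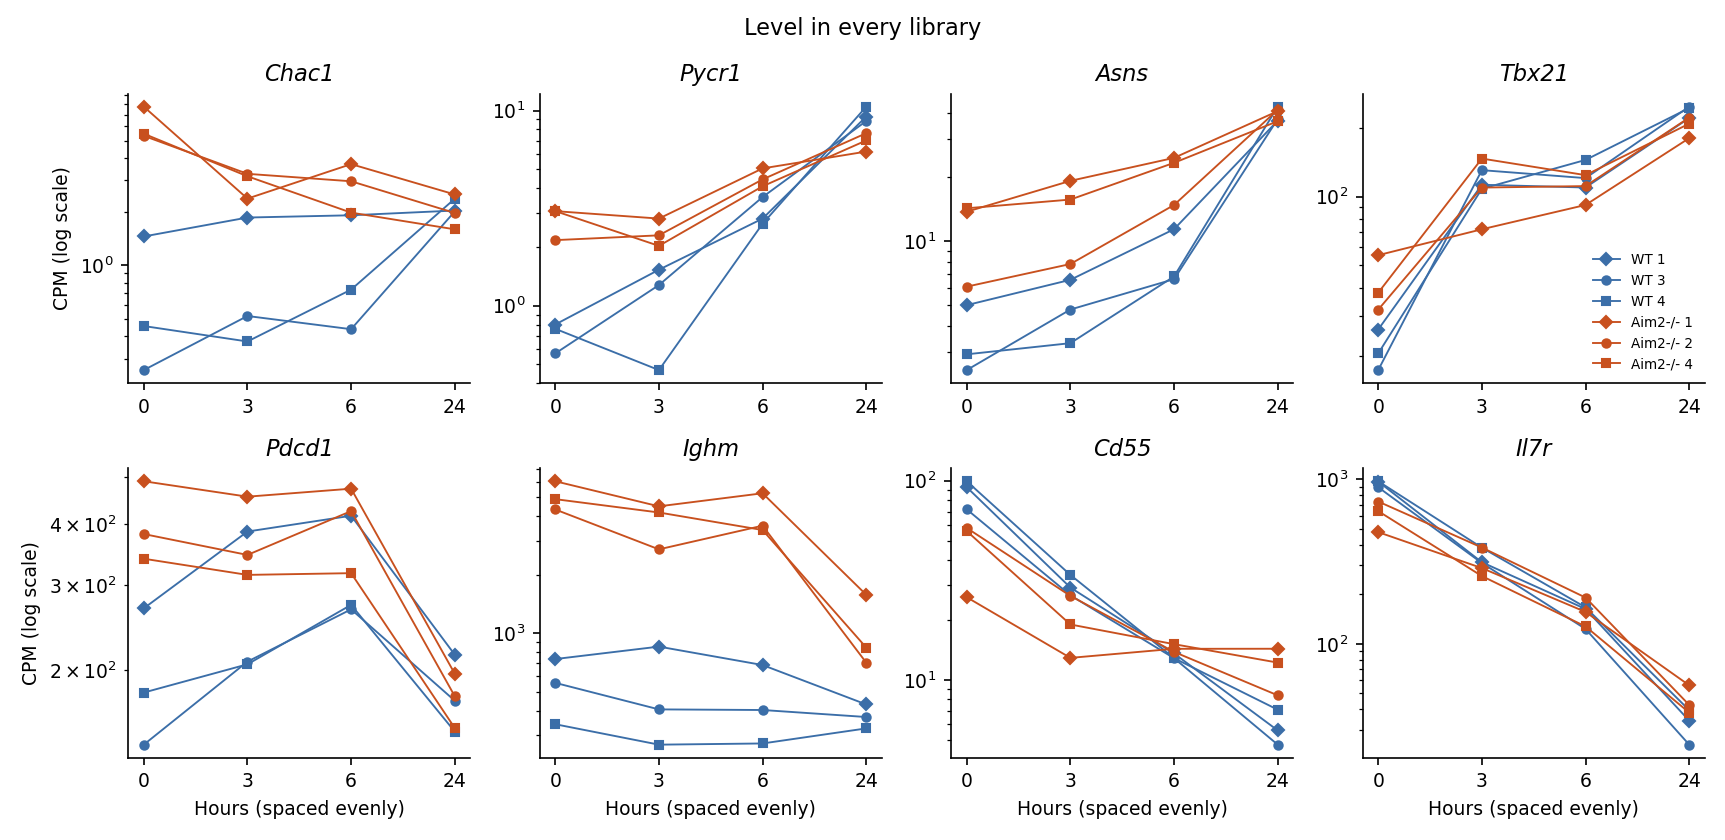
CPM (log scale) of 8 genes at 0, 3, 6 and 24 h in each mouse, with 1 line per mouse, WT in blue and Aim2-/- in orange, and times spaced evenly and not to scale. Chac1, Pycr1 and Asns start higher in Aim2-/- cells and meet or cross WT by 24 h, Cd55 and Il7r start lower and lose less, and Ighm stays higher in Aim2-/- cells throughout.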

How the data were processed

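RNA of splenic CD4+ T cells was sequenced by the authors from TruSeq stranded mRNA libraries, single-end on a HiSeq2500, and mapped to the mouse genome GRCm38 with STAR. The deposited values were raw read counts per Ensembl gene, 1 column per library. The submitters' processing notes also name DESeq2 and edgeR without versions, and the strand setting of the counting is not given in the sources used here, so that overlapping and antisense genes may share reads. Of 54446 identifiers 54409 were matched to GENCODE M21.

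Counts of the 12 libraries at 0 h and 24 h were fitted with edgeR 4.0.16 (R 4.3.3; filterByExpr with a minimum count of 10, TMM factors, quasi-likelihood F-test) with the mouse as a block, and p-values were adjusted by Benjamini-Hochberg over all genes tested, with a threshold of 0.05. The same contrast was fitted on all 24 libraries. CPM values are counts per 1e6 of the library size multiplied by its TMM factor from the fit of 24 libraries. These factors were 0.928 to 1.02 in the 12 libraries. Errors of fold changes are standard errors. The block comes from the labels, which give each mouse number at each time: deviations of same-mouse libraries correlated with r of 0.15 to 0.418 (6 pairs) and those of different mice with r of -0.347 to 0.0788 (12 pairs). The alternatives were no block, other scalings, filters and tools (DESeq2 1.42.0, limma 3.58.1), a GC and length offset, and leaving out each mouse. Mice are separate animals, and no batch was labelled. The scripts were tested on simulated data.

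Named genes were Aim2, the study's T helper and Treg genes, the 10 largest differences in each direction among protein-coding genes past the threshold with at least 5 CPM and no overlap of the 6 responses, the 5 largest at 50 CPM, and up to 3 genes past the threshold per list and direction. Because 1 gene passed with 12 libraries, this rule was applied also to the 24-library results after the data were seen, and further members of lists were named by their lowest p after their values were seen. The members and lists were chosen with earlier results of these data known. Intervals at the level of 3 counts cover counting error only. Some genes of the lists are counted but not reported here by name.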

Additional observations from a re-analysis of the deposited data

Results flagged for a closer look

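The response of Ighm differed between the genotypes by -1.92 on the log2 scale, and it was the only gene past the threshold of the edgeR test of the difference with 12 libraries. In 4 further genes among the 133 named ones every WT mouse moved one way and every Aim2-/- mouse the other way, and for these the difference did not pass with 12 libraries. Chac1 rose in all WT mice and fell in all Aim2-/- mice (difference -3.32). Hdc and Rab31 followed the same pattern (-1.10 and -1.99), and Fcgr2b followed the opposite one (1.45). These 4 were picked out by their directions, which were not tested as a pattern. The pattern was looked for only in the named genes, which were named largely because they differed. Its share over all genes was not counted, so the number 4 cannot be set against a background. Hdc and Fcgr2b are known for expression in basophils, mast cells and other myeloid or B cells, whose marker lists were higher in the Aim2-/- libraries, and the part of such cells was not tested.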

How the results depend on the processing

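With 12 libraries 1 gene passed (0 higher, 1 lower; 2535 at an unadjusted p under 0.05). The count was 1 without the mouse as a block (Pycr1, adjusted p = 0.0453), 424 with all 24 libraries (230 higher, 194 lower), 0 with library totals and 0 with a mean of at least 1 CPM (0 lower in each), 1079 with no filter on low counts (495 higher, 584 lower) and 403 with DESeq2 (180 higher, 223 lower). Leaving out 1 mouse gave 0 to 630 genes (0 to 238 higher, 0 to 392 lower). With 24 libraries 424 genes became 0 without the replicate block (0 higher, 0 lower), 905 with DESeq2 (491 higher, 414 lower) and 714 with the GC and length offset (427 higher), and without single mice 660 (311 higher, 349 lower; WT 1), 6 (1 and 5; WT 3), 298 (197 and 101; WT 4), 21 (7 and 14; Aim2-/- 1), 1186 (508 and 678; Aim2-/- 2) and 72 (44 and 28; Aim2-/- 4). Over the 133 named genes, 2120 of 2128 values with 12 libraries and 1586 of 1596 with 24 kept their direction. The exceptions were 3 cytokine genes that passed in no main comparison. The kept directions are a description, since the fits share libraries and the genes were named largely because they differed. Il10 with 12 libraries turned to 0.001816 with all 24, 0.007143 with library totals, 0.06972 without WT 1, 0.1569 without WT 4 and 0.3236 without Aim2-/- 2, in a range of -0.3961 to 0.3236 over the mice left out. With 24 libraries it turned to -0.009405 with RLE factors, -0.01104 with DESeq2, -0.01159 with limma-voom, -0.05484 with the GC and length offset, -0.2423 without WT 3, -0.3916 without Aim2-/- 1 and -0.01288 without Aim2-/- 4. Il17a turned to -0.1651 and -0.2389 (12 libraries) and -0.1584 and -0.2432 (24) without WT 3 and without Aim2-/- 1, and Il4 to 0.009982 (12) and 0.06387 (24) without WT 4. With 12 libraries the mice left out gave ranges of -0.2389 to 1.152 for Il17a and -0.4628 to 0.009982 for Il4. The causes were not tested.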
